A study of Mus musculus with 6 samples.

Results

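The genes described here are 10 components of the inflammasome pathway in mouse colonic crypts, picked by gene name out of 55487 annotated genes: the sensors Nlrp6, Nlrp3, Nlrp1b, Nlrc4 and Aim2, the adaptor Pycard, the caspases Casp1 and Casp4, and the cytokines Il1b and Il18. Each name matched 1 gene, and all 10 passed the filter on low counts, as did 18539 genes in all. Messenger RNA was measured by bulk RNA-seq in purified crypt cells of C57BL/6 mice aged 4 weeks. The 3 controls had genotype M14(f/f), in which M14 is floxed, that is, carries loxP sites for excision by Cre, and the 3 mutants were M14(f/f);Villin-Cre, so the floxed alleles were shared by all 6. M14 is read here as Mettl14, a subunit of the enzyme complex that places N6-methyladenosine (m6A) on RNA. The Villin promoter drives Cre in gut epithelium, so cells of other types in the preparation keep the gene. Cre was present in mutants alone, so what it does by itself and the loss of Mettl14 cannot be told apart.

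Inflammasomes are cytosolic protein assemblies that detect microbial products or cell damage. A sensor recruits the adaptor ASC (encoded by Pycard), or in some cases caspase-1 directly, and active caspase-1 cuts the precursors of interleukin 1 beta and interleukin 18 and the pore-forming protein gasdermin D. In the intestine, epithelial cells express interleukin 18 and several sensors, whereas interleukin 1 beta is better known as a product of myeloid cells. Nlrp6 is a sensor studied mainly in the gut epithelium of mice. Nlrc4 responds to bacterial flagellin and secretion-system proteins bound by Naip receptors, and Aim2 binds cytosolic double-stranded DNA. Some alleles of Nlrp1b, though not all, respond to proteases such as anthrax lethal factor, and Nlrp3 responds to many forms of membrane and ion stress. Casp4 is the mouse gene for caspase-11, which binds bacterial lipopolysaccharide.

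Each library held 24181631 to 35183636 counted fragments. Values in CPM are counts per 1000000 fragments after TMM scaling of the library sizes, a correction for differences in RNA composition, and values in FPKM are the same per kilobase of annotated exon, used wherever levels of different genes are compared. Reported tests are edgeR's quasi-likelihood test over all 18539 genes, with p-values adjusted by Benjamini-Hochberg, and a gene is said to rise or fall where the adjusted p was under 0.05. Log2 fold changes are mutant minus control. A count of 0 allows up to 0.0820 to 0.120 CPM (3 counts), depending on the library, by counting error only. Mettl14 stood at 23.0 ± 2.78 CPM in controls against 12.8 ± 1.96 in mutants (SD, n = 3), with no overlap between groups (adjusted p = 6.22e-04 by edgeR); the count covers the whole gene, and which exons are floxed is not given in the sources used here. The epithelial markers Epcam, Cdh1 and Krt8 were at 1413 to 2180 CPM on average in controls. Among the mutants, 2 libraries stood apart in sex-linked genes. The female-specific transcript Xist was at 652 CPM in mutant 1, 53.1 CPM in mutant 2 and 1.28 to 1.77 CPM in the controls, with mutant 3 inside that range. The Y-linked gene Ddx3y was at 0.541 CPM in mutant 1 and at 38.0 to 58.4 CPM elsewhere, mutant 2 included. The groups were thus not alike in these genes, and the labels give no sex and no pooling. Mutant 2 held both kinds of transcript, so whether it came from 1 mouse is not known. Results without mutants 1 and 2 are given after the cytokines.

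The promoters of 4 genes are shown first, because Nlrp3 and Il1b rose from very few fragments, while Casp1 fell and Casp4, which lies beside it, did not pass the test. Sequences are RefSeq windows of 300 bases on GRCm38.p6, from 250 bases before the annotated start to 50 after it, written along the gene's strand. Capitals mark matches to the NF-kB motif on either strand; NF-kB is a transcription factor that induces several inflammasome genes.
Nlrp3 (chr11:59541319-59541618, plus strand): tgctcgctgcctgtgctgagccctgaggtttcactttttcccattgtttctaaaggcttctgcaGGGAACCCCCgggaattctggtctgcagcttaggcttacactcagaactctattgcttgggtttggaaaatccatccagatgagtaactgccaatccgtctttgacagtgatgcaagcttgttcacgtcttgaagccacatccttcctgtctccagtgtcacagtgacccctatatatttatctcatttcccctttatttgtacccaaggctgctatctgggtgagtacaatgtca
Il1b (chr2:129371090-129371389, minus strand): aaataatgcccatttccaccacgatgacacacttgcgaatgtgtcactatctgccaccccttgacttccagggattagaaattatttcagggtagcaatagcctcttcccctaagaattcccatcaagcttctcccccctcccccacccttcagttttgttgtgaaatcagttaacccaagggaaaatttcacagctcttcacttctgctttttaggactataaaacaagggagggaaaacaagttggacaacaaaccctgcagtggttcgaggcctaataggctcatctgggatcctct
Casp1 (chr9:5298267-5298566, plus strand): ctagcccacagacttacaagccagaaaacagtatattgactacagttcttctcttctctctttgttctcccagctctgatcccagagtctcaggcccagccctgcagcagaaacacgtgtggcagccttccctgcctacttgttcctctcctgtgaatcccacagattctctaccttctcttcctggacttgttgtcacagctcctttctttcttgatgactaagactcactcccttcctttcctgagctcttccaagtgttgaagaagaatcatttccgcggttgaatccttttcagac
Casp4 (chr9:5308599-5308898, plus strand): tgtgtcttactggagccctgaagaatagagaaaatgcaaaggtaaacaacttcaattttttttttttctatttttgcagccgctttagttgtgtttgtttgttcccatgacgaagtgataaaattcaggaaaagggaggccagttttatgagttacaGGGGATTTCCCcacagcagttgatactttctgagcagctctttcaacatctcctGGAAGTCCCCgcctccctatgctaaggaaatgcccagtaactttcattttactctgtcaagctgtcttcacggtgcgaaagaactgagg
The Casp4 window held 3 matches, 2 of which overlap in the first capital run, and the Nlrp3 window held 1. All 10 members had a window, 13 windows in all since Casp4, Nlrp3 and Nlrp1b had more than 1. Apart from the second, overlapping Casp4 window, none of the others held the motif, including a second Nlrp3 window. Of all 32851 promoter windows, 8.46% held it. The core of the interferon-stimulated response element, also searched on both strands, was in no member's window and in 3.44% of all windows. A missing match says only that these letters are not in these windows.

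Of the 10 genes, 4 rose in mutants (Nlrc4, Aim2, Nlrp3 and Il1b), 4 fell (Nlrp6, Nlrp1b, Casp1 and Il18), and Pycard and Casp4 did not pass. Over all tested genes 23.5% rose and 22.8% fell. For 8 members the CPM values of controls and mutants were fully separate, as they were for 56.9% of all tested genes. The members' median log2 fold change was 0.14, beside 0.01 over all genes. Nlrp3 and Il1b passed the low-count filter through the mutants alone, with 0 of 3 controls and 3 of 3 mutants above it, so they had to differ and their calls add no support; the other 8 members passed in both groups. With 46.3% of all genes called, these counts describe the members only.

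**Figure D1:**
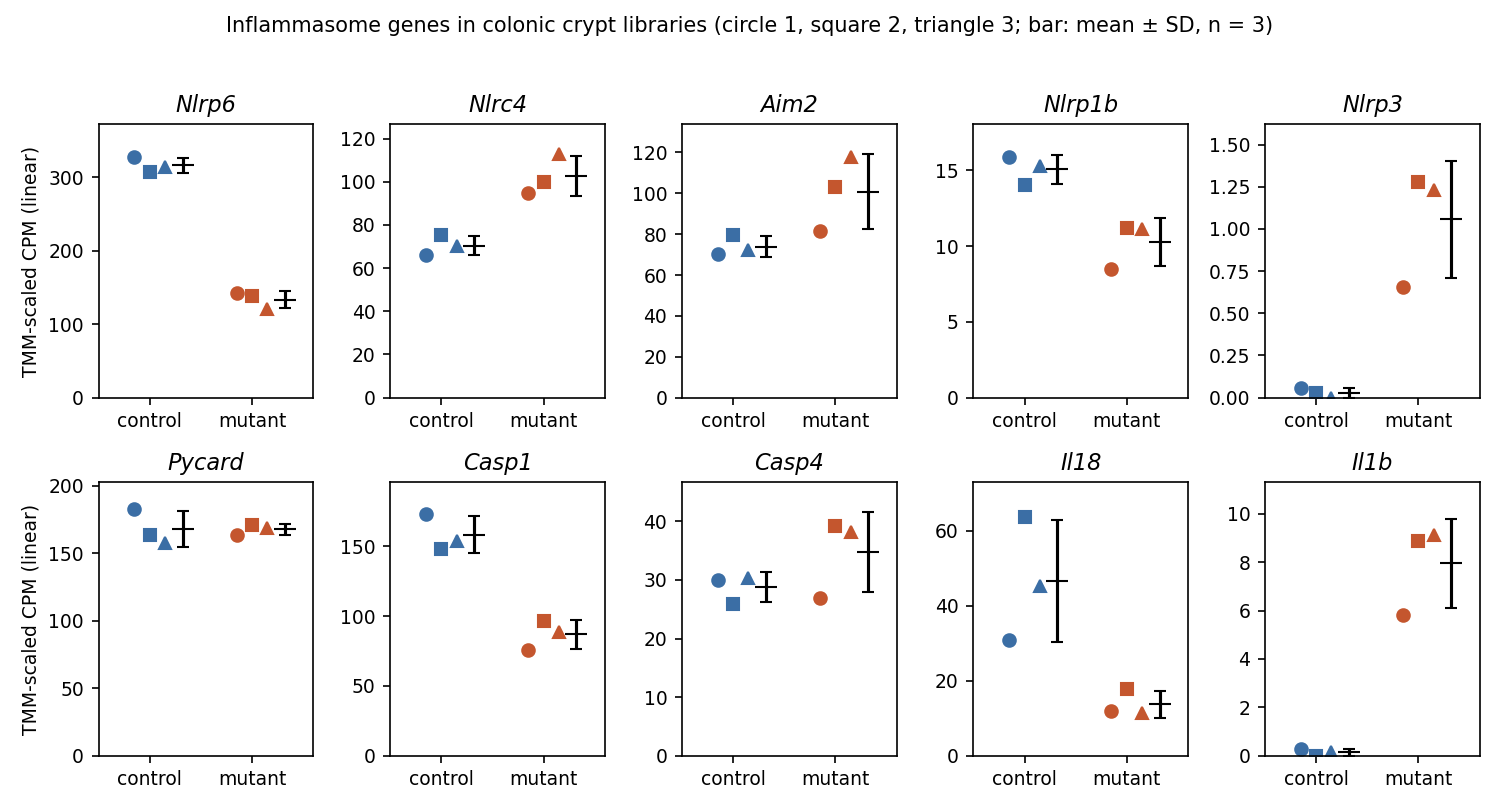
TMM-scaled CPM (linear axes from 0) of the 10 genes in each library, with controls in blue and mutants in red, symbols for replicates 1 to 3, and bars for the mean ± SD (n = 3). Nlrp6, Casp1, Nlrp1b and Il18 lie lower in every mutant than in any control, Nlrc4, Aim2, Nlrp3 and Il1b lie higher, and Pycard and Casp4 overlap.

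Nlrp6 (ENSMUSG00000038745.15, plus strand of chromosome 7, 140920902 to 140929192 on GRCm38) was the most abundant sensor in control crypts. It stood at 327, 306 and 314 CPM in controls 1, 2 and 3 and at 142, 138 and 120 CPM in mutants 1, 2 and 3. The replicates lay close together, with an SD of 3.38% of the mean in controls, and the highest mutant held 142 CPM where the lowest control held 306. By edgeR this was a log2 fold change of -1.25, with a 95% interval of -1.43 to -1.06 (SE 0.084, adjusted p = 4.24e-06). No other annotated exon overlaps Nlrp6 on either strand, so its count is not shared with a neighbour.

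Nlrc4 (ENSMUSG00000039193.9, minus strand of chromosome 17, 74425438 to 74459142) moved the other way. It held 66.1, 75.2 and 70.1 CPM in controls and 94.8, 100.1 and 112.7 CPM in mutants. Each mutant was above each control, and mutant 3 was highest. The rise was 1.46-fold, or 0.54 on the log2 scale (SE 0.086, adjusted p = 6.79e-04 by edgeR). Aim2 (ENSMUSG00000037860.15, plus strand of chromosome 1, 173350879 to 173466040) held 70.1, 79.7 and 72.1 CPM in controls and 81.7, 103 and 118 CPM in mutants. The gap between the groups was small, since mutant 1 was just above control 2. Aim2 rose by 0.45 on the log2 scale (SE 0.12, adjusted p = 0.0134 by edgeR), and the call was lost without control 1 (adjusted p = 0.0552, log2 fold change 0.40) and without control 3 (adjusted p = 0.0546, log2 fold change 0.41).

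Nlrp1b and Nlrp3 were the scarce sensors. Nlrp1b (ENSMUSG00000070390.12, minus strand of chromosome 11, 71153102 to 71230733) held 15.9, 14.0 and 15.3 CPM in controls and 8.47, 11.2 and 11.1 CPM in mutants. All mutants were lower, and mutant 1 was lowest. The fall was -0.55 on the log2 scale (SE 0.13, adjusted p = 0.00587 by edgeR). Nlrp1b has close relatives beside it, and reads that align to several genes were not counted, so its level is uncertain; Nlrp1a held 0 to 6 counts and the pseudogene Nlrp1c-ps held 1 to 8 counts per library.

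Nlrp3 (ENSMUSG00000032691.14, plus strand of chromosome 11, 59541568 to 59566956) was near absent from control crypts. It had 2, 1 and 0 fragments in controls and 17, 32 and 45 in mutants, which is 0.657, 1.28 and 1.23 CPM. Every control was below the level that 3 counts would give, and every mutant was above it. Over the groups, 94 fragments in mutants against 3 in controls gave a ratio of 35.7 after scaling (exact 95% interval 11.9 to 176, counting error only). The fitted value was 4.97 on the log2 scale (SE 0.62), and 5.76 without control 1, which held most of the control fragments. Even in mutants Nlrp3 made up 0.224% to 0.397% of the summed FPKM of the 5 sensors.

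The make-up of sensor transcripts was also compared within each library, and such shares and ratios need no scaling between libraries. Nlrp6 held 64.0%, 59.7% and 62.1% of the summed sensor FPKM in controls 1, 2 and 3 and 38.5%, 34.1% and 28.5% in mutants 1, 2 and 3. The share of Aim2 was 21.1% ± 1.37 in controls and 36.6% ± 4.25 in mutants, and that of Nlrc4 was 14.6% ± 0.932 and 27.3% ± 1.07 (SD, n = 3). For each of these 3 shares the groups did not overlap, and the 2-sided exact permutation p was 0.1, the smallest that 3 against 3 allows. The shares of a library add up to its whole, so a smaller share of Nlrp6 means larger shares elsewhere. They are not separate results. The share of Nlrp1b, 2.38% ± 0.157 in controls and 2.07% ± 0.198 in mutants, overlapped between groups (exact permutation p = 0.2). The summed sensor FPKM, which does depend on the TMM scaling, was 100.3 ± 0.846 in controls and 78.2 ± 5.27 in mutants. The ratio of Nlrp6 to Nlrc4 in FPKM went from 4.26 ± 0.419 to 1.24 ± 0.211.

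**Figure D2:**
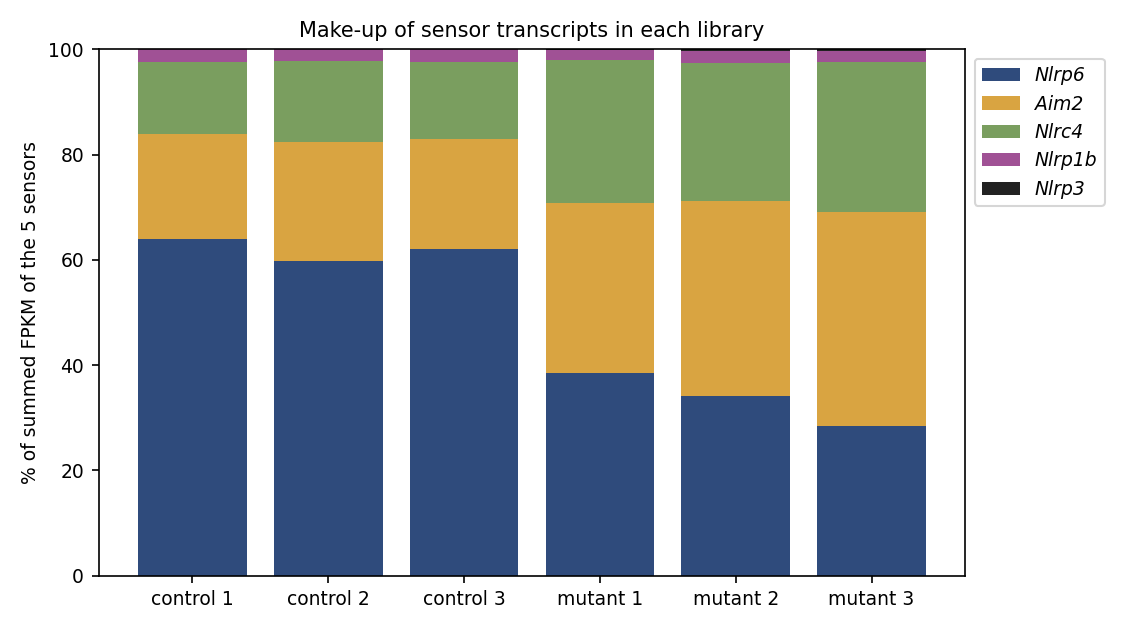
Share of each sensor in the summed FPKM of the 5 sensors (vertical axis, percent) in each of the 6 libraries. Nlrp6 takes 59.7% to 64.0% in controls and 28.5% to 38.5% in mutants, while Aim2 and Nlrc4 take larger shares in mutants, and Nlrp3 is a barely visible strip.

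Pycard (ENSMUSG00000030793.4, minus strand of chromosome 7, 127989708 to 127993867), the adaptor that links pyrin-domain sensors to caspase-1, held 183, 164 and 157 CPM in controls and 163, 171 and 169 CPM in mutants. All mutants lay within the range of the controls. The difference on the log2 scale was -0.00, with a 95% interval of -0.17 to 0.17 (adjusted p = 0.988 by edgeR). Of its annotated exon length, 12.8% lies opposite the antisense gene Gm45205, and counting used the strand.

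Casp1 (ENSMUSG00000025888.6, plus strand of chromosome 9, 5298508 to 5307290), the caspase that cuts both cytokines, fell from 173, 148 and 154 CPM in controls to 75.5, 96.3 and 89.0 CPM in mutants. No mutant reached the lowest control, and mutant 1 was lowest. The fall was -0.86 on the log2 scale (SE 0.10, adjusted p = 1.16e-04 by edgeR). Casp4 (ENSMUSG00000033538.13, plus strand of chromosome 9, 5308828 to 5336783) starts 1537 bases beyond the end of Casp1 on the same strand. It held 30.1, 25.8 and 30.4 CPM in controls and 27.0, 39.3 and 38.2 CPM in mutants. Mutants 2 and 3 lay above all controls, whereas mutant 1 lay among them. The difference was 0.28 on the log2 scale, with a 95% interval of -0.03 to 0.58 (adjusted p = 0.124 by edgeR), and without mutant 1 it was 0.42 and passed (adjusted p = 0.00520). The ratio of Casp1 to Casp4 in FPKM was 6.81, 6.78 and 5.98 in controls and 3.31, 2.90 and 2.75 in mutants, without overlap (2-sided exact permutation p = 0.1, the smallest possible). Casp12, another caspase of the inflammatory group, held 30, 35 and 33 fragments in controls and 11, 28 and 34 in mutants (adjusted p = 0.599 by edgeR).

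Il18 (ENSMUSG00000039217.13, plus strand of chromosome 9, 50554827 to 50581840), the interleukin best known from gut epithelium, was the member with the largest fall. It held 31.0, 63.6 and 45.4 CPM in controls and 11.9, 17.8 and 11.3 CPM in mutants. The controls were widely spread, with an SD of 35.1% of the mean, yet the lowest control was above the highest mutant. By edgeR the fall was -1.77 on the log2 scale, with a 95% interval of -2.34 to -1.21 (SE 0.25, adjusted p = 3.74e-04). Il1b (ENSMUSG00000027398.13, minus strand of chromosome 2, 129364570 to 129371139) rose from 10, 0 and 5 fragments in controls to 151, 222 and 334 in mutants. Of its exons, 25 bases lie opposite the antisense gene Il1bos. In CPM the mutants held 5.84, 8.88 and 9.13, with mutant 1 lowest, and the highest control held 0.285. The scaled ratio of 707 to 15 fragments was 53.8 (exact 95% interval 32.4 to 96.6, counting error only). The fitted value was 5.69 on the log2 scale (SE 0.49), with 6.60 without control 1 and 5.10 without control 2.

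The gap between the 2 cytokines was smaller in mutants. In FPKM, Il18 exceeded Il1b 201-fold in control 1 and 520-fold in control 3, and at least 1321-fold in control 2, where Il1b was at 0 and its floor of 3 counts was used. In mutants 1, 2 and 3 the excess was 3.79-fold, 3.72-fold and 2.29-fold. Il1b remained below Il18 in each library.

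**Figure D3:**
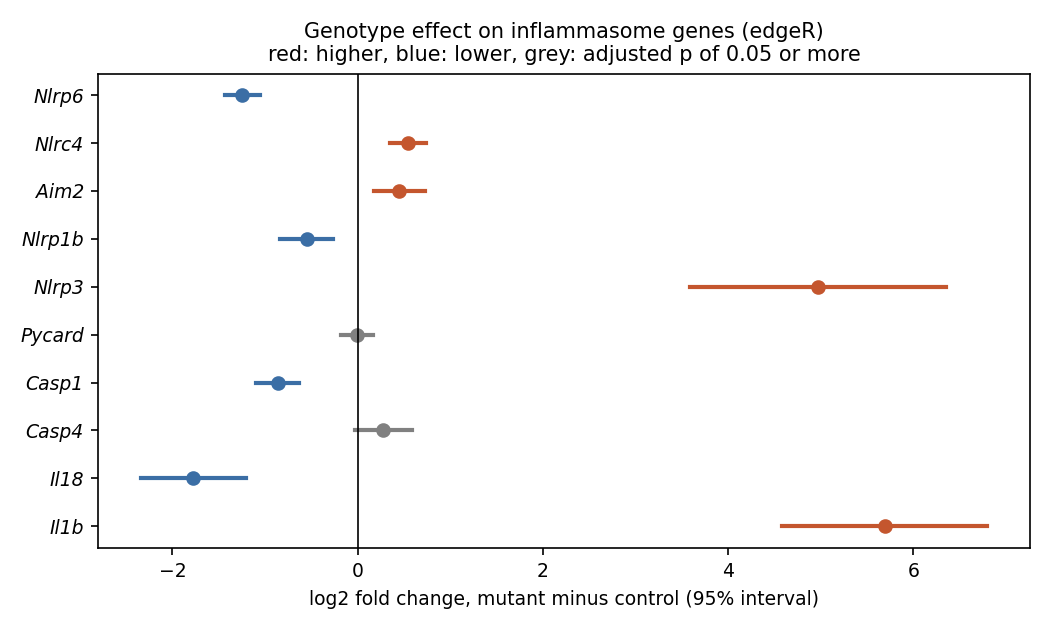
Log2 fold change of each member (horizontal axis, mutant minus control) with its 95% interval from edgeR, red for genes that rose, blue for genes that fell and grey for those that did not pass. Il1b (5.69) and Nlrp3 (4.97) have the largest values and the widest intervals, and the intervals of Pycard and Casp4 include 0.

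Ordered by FPKM, control crypts held Nlrp6 (62.2 ± 2.10), Casp1 (50.5 ± 4.23), Il18 (45.2 ± 15.9) and Pycard (44.2 ± 3.48) at the top. Il18 overlapped both of its neighbours in this order, and Casp1 and Pycard overlapped each other. Il18 also overlapped Nlrp6, since in control 2 it held 61.7 FPKM against 60.3 for Nlrp6. Aim2 (21.1 ± 1.45), Nlrc4 (14.7 ± 0.954), Casp4 (7.75 ± 0.688) and Nlrp1b (2.39 ± 0.151) followed without overlap, ahead of Il1b (0.0781 ± 0.0750) and Nlrp3 (0.00713 ± 0.00703). In mutants Pycard led (44.1 ± 1.02) and was above every other member in each library. Aim2 (28.8 ± 5.19), Casp1 (27.7 ± 3.37) and Nlrp6 (26.2 ± 2.30) came next and overlapped one another. Nlrc4 (21.3 ± 1.92), Il18 (13.3 ± 3.50) and Casp4 (9.38 ± 1.83) then came above Il1b (4.17 ± 0.963), which had passed Nlrp1b (1.63 ± 0.248), and Nlrp3 was last (0.260 ± 0.0854). Pycard exceeded Nlrp6 by 1.69 ± 0.176 times in mutants and was 0.710 ± 0.0379 of it in controls.

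Without mutants 1 and 2, a fit of 3 controls against the single mutant 3 that assumes this library varies like the controls, 5 members were called higher and 4 lower. The added call was Casp4 (log2 fold change 0.38, adjusted p = 0.0405 by edgeR). Nlrp6 was at -1.43, Il18 at -2.07, Casp1 at -0.86 and Nlrp1b at -0.46 on the log2 scale. Nlrc4 was at 0.65, Aim2 at 0.64, Nlrp3 at 5.17 and Il1b at 5.86. Each of these 8 values had the direction seen with all libraries. Mutant 3 and the controls are in both fits, and the groups did not overlap for these 8 genes. The direction was therefore fixed in advance and adds no support.

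Markers of other cell types differed between the same libraries, where 23.5% of all tested genes rose and 22.8% fell. Of 16 markers of macrophages and dendritic cells 14 rose, C1qa fell and Cd163 did not pass, and their summed level was 39.0 to 48.2 CPM in controls and 92.1 to 121 CPM in mutants. Cd14 was the largest part of this sum, at 18.2 ± 1.82 CPM in controls and 33.4 ± 4.83 in mutants. Next came C1qa in controls (7.69 ± 3.13 CPM) and Lyz2 in mutants (18.4 ± 6.42 CPM). Fcgr1 passed the low-count filter through the mutants alone, so it had to differ. The macrophage markers Adgre1 and Csf1r rose from 0.449 ± 0.110 and 2.18 ± 0.110 CPM to 1.84 ± 0.723 and 9.99 ± 2.44 CPM. Cd68 rose by 1.00 on the log2 scale, and its call was lost without control 1, control 3 or mutant 2 (adjusted p = 0.0915, 0.0750 and 0.115 by edgeR). Without mutants 1 and 2, 11 of the 16 were called higher, and the calls lost were those of Cd68 (adjusted p = 0.192), C1qc (adjusted p = 0.0778) and Fcgr1 (adjusted p = 0.0770). Of 10 neutrophil markers 5 were tested and 4 rose. Their sum was 9.42 to 13.3 CPM in controls and 13.4, 40.4 and 34.5 CPM in mutants 1, 2 and 3, most of it Ly6g. The granule gene Elane was at 0 in each control and at 0, 1 and 2 fragments in mutants. Mpo, Retnlg, Camp and Ngp, also untested, held 0 to 11 fragments per library, and Cxcr2 did not pass. The groups overlapped for Ly6g, with 11.1 CPM in mutant 1 and 12.9 CPM in control 2. Its call was lost without control 1 (adjusted p = 0.0612) and without mutant 2 (adjusted p = 0.0563 by edgeR). The calprotectin gene S100a8 was at 0.0293 ± 0.0297 CPM in controls against 2.19 ± 1.26 in mutants, a fitted log2 rise of 6.02, or 6.84 without control 2. S100a9 was at 0.0868 ± 0.124 and 1.03 ± 0.551 CPM, a fitted log2 rise of 3.49, or 5.73 without control 1. S100a8, S100a9 and Csf3r were under the filter level of 0.298 CPM in every control and above it in every mutant. They had to differ, so their calls add no support. Among mutants, Il1b, Nlrp3 and the neutrophil sum were all lowest in mutant 1. So were the macrophage and dendritic cell sum and Nlrc4, Aim2, Nlrp1b, Pycard, Casp1 and Casp4, whereas Nlrp6 and Il18 were lowest in mutant 3. The macrophage and dendritic cell sum was nearly equal in mutant 1 (92.1 CPM) and mutant 3 (94.3 CPM). The order of 3 mutants cannot decide which cells these transcripts came from. The part of these markers in the rises of Il1b and Nlrp3 was not tested.

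Of 5 endothelial markers 2 rose, among them Pecam1 (5.54 ± 1.04 to 10.7 ± 0.916 CPM), while Cdh5 and Kdr did not pass, at 0.519 and 1.86 CPM in controls and 0.649 and 1.27 CPM in mutants. Of 6 markers of B and plasma cells 1 was tested and did not pass, and Cd79a and Cd79b held 0 to 9 fragments per library. Of 9 tested T cell and innate lymphocyte markers 1 rose, and Cd3e, Cd3d and Cd3g did not pass, at 0.760, 0.517 and 1.92 CPM in controls and 1.09, 0.709 and 1.91 CPM in mutants. The gene that rose, Cd4, passed the low-count filter through the mutants alone, so it had to differ. Of 10 epithelial markers 4 fell (Epcam, Krt8, Krt20 and Vil1) and 1 rose, and the sum went from 15076 to 16854 CPM in controls to 11789 to 14133 CPM in mutants. Epcam fell by 0.43 and Krt8 by 0.41 on the log2 scale, and Cdh1 rose by 0.24. The number of falls was 1 with library totals only, where Krt8, Krt20 and Vil1 lost their calls (adjusted p = 0.0721, 0.0894 and 0.0558 by edgeR), 2 without mutants 1 and 2, and 6 with DESeq2 or with no filter, which added Krt19 and Lgals4. The call of Krt20 was also lost without any 1 control (adjusted p = 0.0540 to 0.0588), that of Krt8 without control 1 (adjusted p = 0.0572), and that of Cdh1 was lost when any 1 library was left out except mutant 1 (adjusted p = 0.102 to 0.144, by edgeR). Of 8 mesenchymal markers 5 fell, or 4 without mutants 1 and 2, and their sum was 217 to 248 CPM in controls and 107 to 120 CPM in mutants; Col1a1, Col1a2 and Col3a1 fell by 1.34, 1.19 and 1.29 on the log2 scale. In bulk RNA, fewer cells of a type and less RNA per cell cannot be told apart, and the part of these shifts in the falls was not tested.

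**Figure D4:**
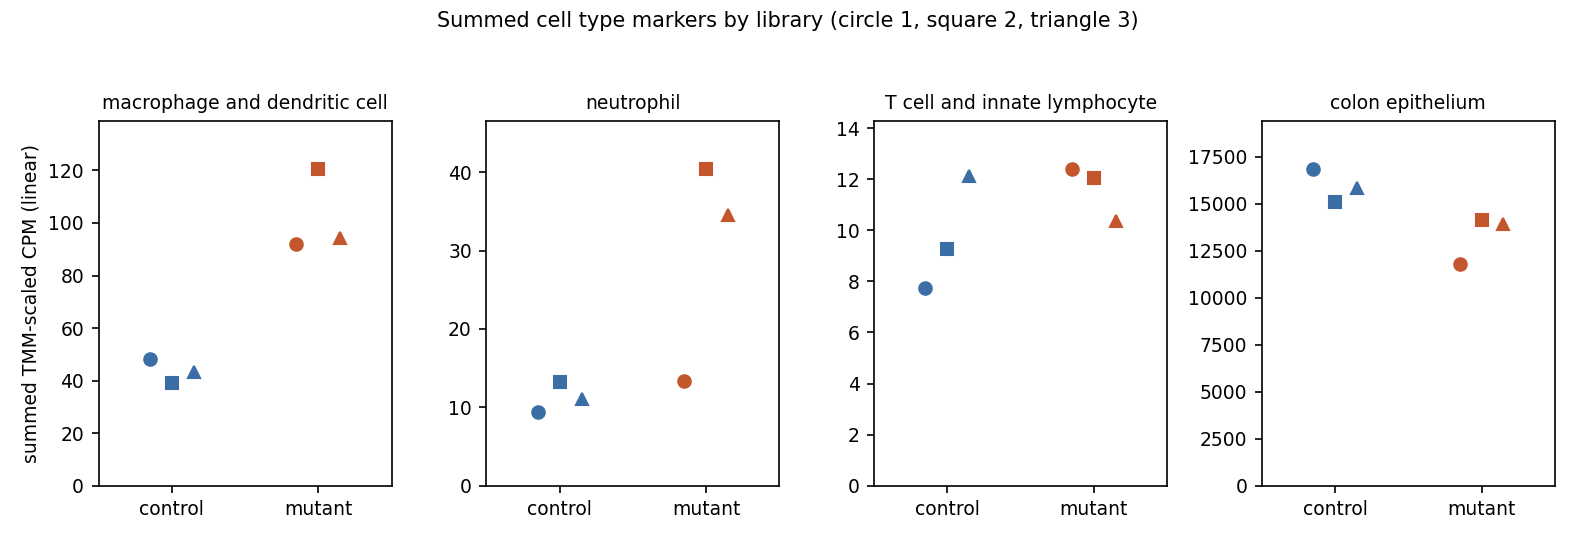
Summed TMM-scaled CPM (linear axes from 0) of 4 marker lists in each library, controls in blue and mutants in red, with symbols for replicates 1 to 3. Macrophage and dendritic cell markers lie at 39.0 to 48.2 CPM in controls and 92.1 to 121 CPM in mutants, and epithelial markers are lower in mutants.

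Other genes of the pathway were taken from a list of 61 symbols, of which 56 were in the files and 49 were tested. Rises were called for 21 and falls for 7, and 21 genes stayed uncalled, where 23.5% of all tested genes rose and 22.8% fell; the median difference on the log2 scale was 0.21. Without mutants 1 and 2, 17 were called higher and 6 lower. The low-count filter kept genes such as Mefv, Il1a and Il1r2 because of their levels in mutants, so the counts do not stand for the whole list.

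The Naip genes, whose proteins bind flagellin or secretion-system proteins and then engage Nlrc4, were not called higher. Naip5 fell from 60.6 ± 2.07 to 37.9 ± 5.74 CPM and Naip6 from 161 ± 19.1 to 95.1 ± 8.77 CPM, which is -0.68 and -0.76 on the log2 scale (adjusted p = 6.20e-04 and 2.79e-04 by edgeR). Naip1 stood at 195 ± 19.6 and 175 ± 27.1 CPM (95% interval of the log2 fold change -0.42 to 0.11), and Naip2 at 81.1 ± 2.00 and 75.3 ± 4.24 CPM (-0.26 to 0.05). The Naip genes share much of their sequence, so how reads divide between them is uncertain. Of the 8 other sensors tested, 4 rose and 0 fell, where 23.5% of all tested genes rose and 22.8% fell. Mefv, among the rises, passed the low-count filter through the mutants alone. Nlrx1, a mitochondrial member of the family, rose from 20.5 ± 1.45 to 50.9 ± 7.18 CPM, and Nlrp10 from 1.78 ± 0.124 to 5.81 ± 0.933 CPM.

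The 3 genes listed for pore formation and membrane rupture, Gsdmd, Gsdme and Ninj1, all rose, where 23.5% of all tested genes rose. Other gasdermin genes were not on the list. Gsdmd, the caspase-1 substrate that forms the pore, held 105, 115 and 114 CPM in controls and 125, 220 and 197 CPM in mutants (0.70 on the log2 scale, SE 0.17, adjusted p = 0.00775 by edgeR). Mutant 1 was close to the controls, though above them. Ninj1, which ruptures the plasma membrane in lytic death, held 17.5, 16.7 and 18.5 CPM in controls and 45.8, 43.9 and 45.4 CPM in mutants, with little spread in either group (log2 fold change 1.36, SE 0.072, adjusted p = 9.57e-07 by edgeR). Gsdme rose from 19.6 ± 2.07 to 30.7 ± 4.62 CPM.

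In the activation and licensing group, 4 of 15 genes rose, 2 fell and 9 did not pass, beside 46.3% of all tested genes called in either direction. P2rx7, the ATP-gated channel upstream of Nlrp3, rose by 1.29 on the log2 scale, and Panx1, a channel that releases ATP, rose by 0.79. Ripk3, the necroptosis kinase, rose from 33.2 ± 3.30 to 63.2 ± 14.0 CPM. Dpp8 and Dpp9, peptidases that hold Nlrp1 proteins inactive, fell by 0.29 and 0.34 on the log2 scale. Of the caspases left, Casp14, a skin caspase of the same sequence group, fell from 13.2 ± 2.04 to 5.45 ± 2.82 CPM.

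Of the interleukin 1 family, 4 genes were tested apart from Il1b and Il18; Il1a, Il1rn and Il1f8 rose and Il33 fell, the last a call lost without mutants 1 and 2 (adjusted p = 0.0642 by edgeR). Il1rn, which encodes the interleukin 1 receptor antagonist, held 24.6, 15.3 and 21.3 CPM in controls and 74.1, 103 and 120 CPM in mutants (log2 fold change 2.28, SE 0.20, adjusted p = 1.94e-05 by edgeR). In FPKM it exceeded Il1b 29.7-fold and 45.5-fold in controls 1 and 3, and at least 59.1-fold in control 2 with Il1b at its floor of 3 counts, but 4.37-fold, 3.98-fold and 4.51-fold in mutants 1, 2 and 3. Il1a, the other receptor agonist, was at 0.0806 ± 0.0192 CPM in controls against 2.76 ± 1.05 in mutants. It passed the low-count filter (0.298 CPM) through the mutants alone, so it had to differ and its call adds no support. Il1f8, the gene for interleukin 36 beta, rose from 0.368 ± 0.226 to 5.05 ± 2.53 CPM. Control 2 (0.148 CPM) was under the filter level, so Il1f8 also needed the mutants to pass.

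Receptors and decoys gave 7 rises and 1 fall among 13 genes, where 23.5% of all tested genes rose and 22.8% fell. Il1r2, among the rises, passed the low-count filter through the mutants alone. Il1rl1 (0.228, 0.534 and 0.194 CPM in controls) and Il18rap (0.371, 0.208 and 0.355 CPM) also rose. Not every control reached the filter level of 0.298 CPM for them, so they needed the mutants to pass. The count of rises rests in part on such genes. Il18bp, the secreted decoy of interleukin 18, held 3.20, 4.78 and 3.78 CPM in controls and 6.22, 8.88 and 8.56 CPM in mutants (log2 fold change 1.01, SE 0.20, adjusted p = 0.00256 by edgeR). The ratio of Il18 to Il18bp in FPKM was 28.4, 39.0 and 35.3 in controls and 5.63, 5.90 and 3.87 in mutants, without overlap (2-sided exact permutation p = 0.1, the smallest possible). Il1r1, the signalling receptor of interleukin 1, rose by 0.52, a call lost without mutants 1 and 2 (adjusted p = 0.0750 by edgeR), and the kinase gene Irak4 fell by 0.50 on the log2 scale. The rise of Irak1 was 0.21 (adjusted p = 0.0230 by edgeR), and the call was lost without control 2, control 3 or mutant 2 (adjusted p = 0.0766, 0.114 and 0.0856), without mutants 1 and 2 (adjusted p = 0.254) and with no filter (adjusted p = 0.198).

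**Figure D5:**
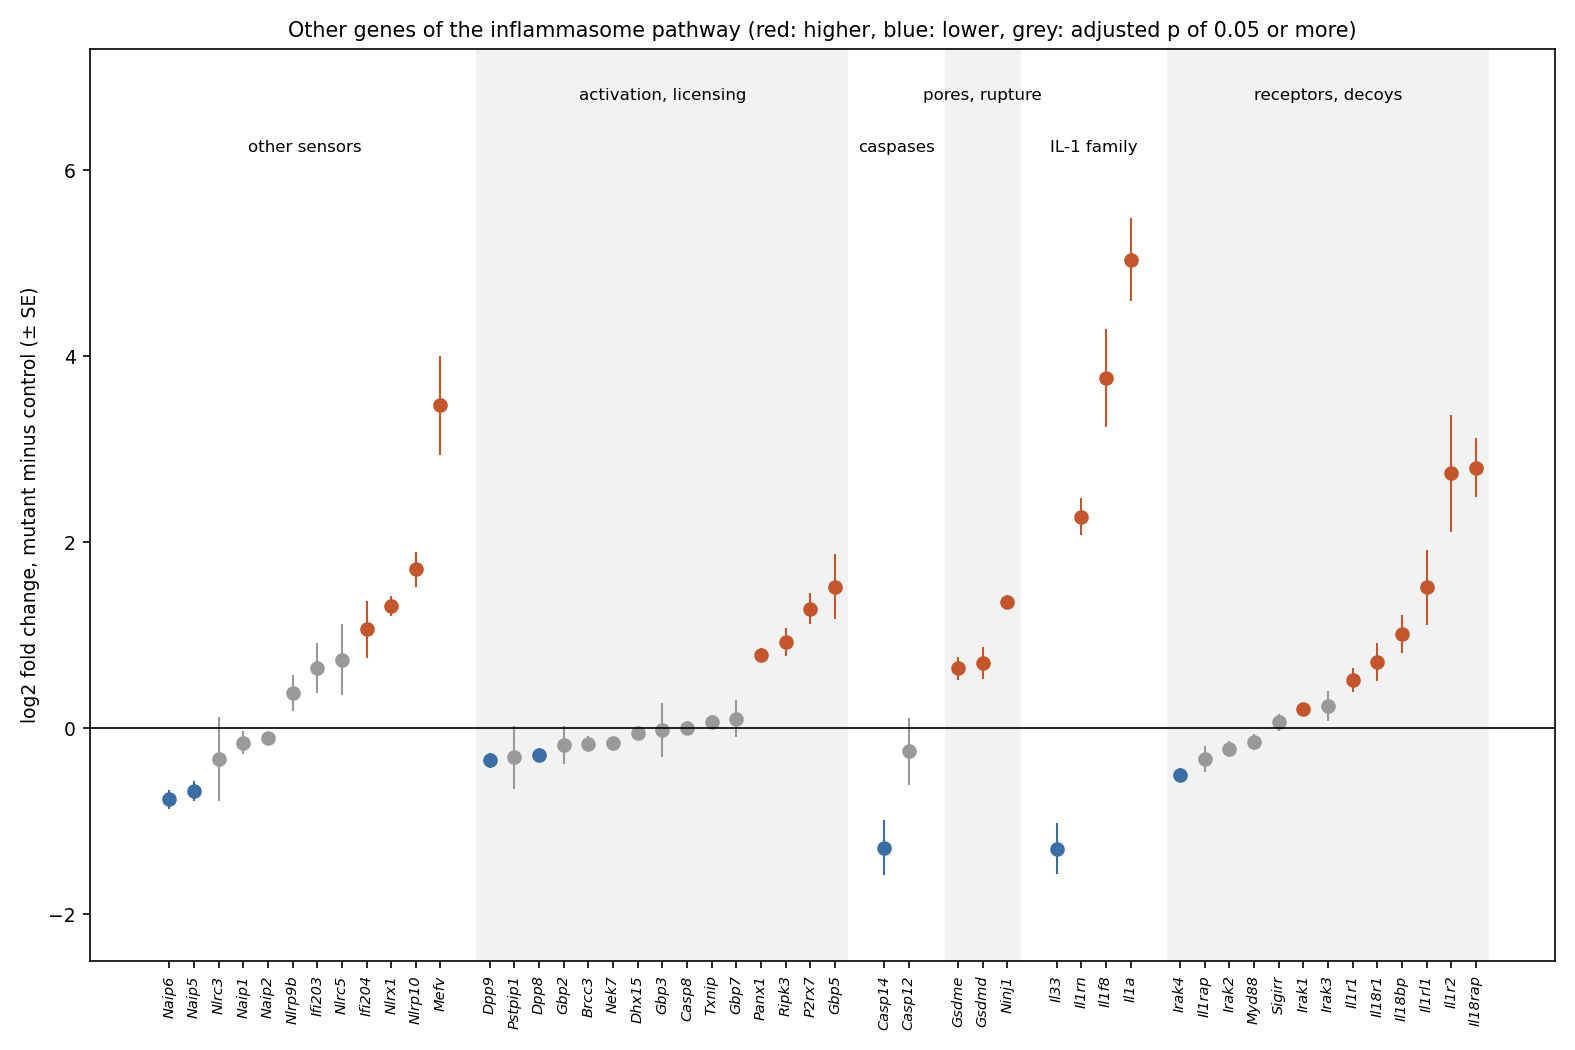
Log2 fold change (vertical axis, mutant minus control, ± SE from edgeR) of the 49 tested genes of the pathway list, grouped by role, red for genes that rose, blue for genes that fell and grey for those that did not pass. Il1a, kept by the low-count filter through the mutants alone, has the highest value. Ninj1, Gsdmd and Gsdme all lie above 0, and Naip5 and Naip6 lie below it.

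The genes with library profiles most like those of 4 members were found by the Euclidean distance between mean-centred log2 CPM values over the 6 libraries. For Nlrp6 they were Tmem198b, Ngef and Pank3, at distances of 0.0685, 0.0913 and 0.103, and for Casp1 they were Peg13, Slc8b1 and Plcd1, at 0.0866, 0.0964 and 0.152. For Il18 the distances were larger, 0.336 to 0.428, and the genes were Olfr78, Sardh and Tex12. Tex12 lies inside the span of Il18 on the opposite strand, at 50556819 to 50561325 of chromosome 9, shares no exon with it, and was at 0.987 CPM in controls against 0.225 in mutants. For Il1b the nearest were Acod1, which makes itaconate in activated macrophages, the chemokine gene Ccl20 and Ccdc160, at 1.14 to 1.35. The 6 libraries include both genotypes, so the difference between genotypes enters each distance.

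Sequence letters of the transcripts were also counted, since the deleted gene serves m6A, which is placed mainly within DRACH motifs such as GGACT (in DNA letters). In the longest coding transcript of each gene in GENCODE vM21, the density of GGACT was 1.99 per kilobase for Nlrp3, 1.90 for Nlrc4, 1.48 for Il1b and 1.41 for Aim2, the 4 members that rose. It was 1.13 for Il18, 0.902 for Nlrp6, 0.668 for Casp1 and 0.484 for Nlrp1b, the 4 that fell, and 1.05 for Pycard and 0.697 for Casp4. The median over 21877 genes was 1.01, and 87.6% of genes held at least 1 site. These are letters in a sequence, with 1 to 9 sites per transcript; m6A was not measured in these libraries, and the order was seen after the calls were known and has no test.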

How the data were processed

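Libraries were made from polyadenylated RNA with a SMARTer stranded kit, per the labels. The submitters' processing notes name Trim Galore 0.6.5, STAR 2.6.1d and the GRCm38 build. Per the file headers, the authors' fragment counts per gene came from featureCounts 1.6.4 with GENCODE vM25, by strand, leaving out fragments that hit several places or genes. The deposited values are raw counts.

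Testing used edgeR 4.0.16 in R 4.3.3, after filterByExpr (minimum count 10, minimum total 15) and TMM scaling, with genotype as the only term and all 6 libraries. FPKM used the gene lengths in the deposited files. The fit was tested on simulated data in which only a small part of the genes was changed. That test does not cover data in which 46.3% of genes are called. Alternatives were DESeq2 1.42.0, other scalings and filters, a replicate block and leaving out libraries. Pairs of libraries within a group had a chi-square of 14.1 to 93.9 per gene, and none was treated as a duplicate. The mice came as 3 pairs, per the series design; the sources used here do not say which control goes with which mutant, so the main fit has no pairs and p-values measure the spread between these samples. Members and lists were chosen with earlier results of these data known. Pathway genes were named if called and at 5 CPM or more on average in either group, with Gsdmd, Il1rn, Il18bp, Il1a and the Naip genes added; 3 first-listed markers were named per list, of which 1 is not reported here, and 3 nearest genes for Nlrp6, Casp1, Il18 and Il1b. Nlrp1a, Nlrp1c-ps, Casp12, Il33, Mefv, Il1r2, Il1rl1, Il18rap, C1qa, Cd163, C1qc, Fcgr1, Cd14 and Lyz2 were singled out after values were seen. So were Cd4, Csf3r, Mpo, Retnlg, Camp, Ngp, Cxcr2, Krt19, Krt20, Vil1, Lgals4, Elane and GGACT.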

Additional observations from a re-analysis of the deposited data

How the results depend on the processing

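Under 15 alternatives the 10 members gave 149 log2 fold changes, of which 145 kept their direction, or lay on either side of 0 without a call (Pycard), and stayed on the same side of the threshold. The exceptions were Aim2 without control 1 (0.40) and without control 3 (0.41), which lost its call, and Casp4 without mutant 1 (0.42) and without mutants 1 and 2 (0.38), which gained one. Leaving out 1 library gave 0.32 to 0.57 for Aim2 and 0.18 to 0.42 for Casp4. Nlrp3 was not tested under the stricter filter (minimum count 30). The number of members called higher was 3 to 5 and lower 4 throughout. With the replicate block, 4 members were called higher and 4 lower, and 3789 genes rose and 3614 fell, against 4354 and 4235. Same-numbered libraries deviated with correlations of -0.14 to -0.07, so the numbers are not used as pairs; this does not show that the mice were unpaired. The block ended the calls of Irak1 (adjusted p = 0.0704), Cdh1 (adjusted p = 0.140) and Krt8 (adjusted p = 0.0610 by edgeR). With library totals only, 4881 genes rose and 3389 fell. With no filter the median of all genes was 0.19, beside 0.01. Levels of Nlrp3 and Il1b in controls rest on 3 and 15 fragments, which limits the precision of their folds.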
